A study of Homo sapiens with 4 samples.

Results

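The genes CBL, PLA2G4A, CAPN2, PSMB1, AVEN and UBE2Q1 carried peaks of SRSF1-recovered RNA on several coding exons in at least 1 peak list. These 6 genes, of 58735 in the deposited annotation, were chosen because earlier results of these data showed several coding peaks in each, so their peak counts and coverage are descriptions and were not tested. They held 39 of the 229 peak regions of the wild type list and 28 of the 194 of the list from ZCCHC7-overexpressing cells. The cells were RKO, an established line from a human colorectal carcinoma, with wild type ZCCHC7 expression or with ZCCHC7 overexpressed (ZCCHC7-OE). ZCCHC7 is a zinc-knuckle protein of the TRAMP complex, which passes nuclear RNA to the exosome for degradation. Each genotype had 1 input library and 1 library of RNA recovered with an SRSF1 antibody (IP), so no difference has a replicate check. The labels' protocol also describes an anti-m6A step, so recovery by SRSF1 rests on the protocol's wording, and the labels do not say how ZCCHC7 was overexpressed or whether the cells were 1 clone.

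SRSF1 is an SR protein. Its RNA recognition motifs bind purine-rich stretches of exons, where it helps the spliceosome recognise splice sites, and it moves between nucleus and cytoplasm, where it also acts on mature mRNA. Of the genes described here, UBE2Q1 encodes a ubiquitin-conjugating enzyme, CBL a ubiquitin ligase that marks activated receptor tyrosine kinases for degradation, and PSMB1 a beta-type subunit of the proteasome core. CAPN2 encodes the catalytic subunit of m-calpain, a calcium-dependent protease. PLA2G4A encodes the cytosolic phospholipase that releases arachidonic acid from membranes, and AVEN an inhibitor of caspase activation.

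Depth was low. There were 1070075 tags in the wild type IP library and 142404 in its input, and 690876 and 97545 in the corresponding ZCCHC7-OE libraries. In what follows a region is an interval called by the authors' peak caller, a summit is a local maximum within it, and the IP tags of a summit are the extended IP fragments over that base. The input background is the caller's local estimate at each input's own depth, which cannot fall below a genome-wide value of 0.0998 in wild type and 0.0716 in ZCCHC7-OE. Values within 0.003 of it are taken as the lowest background. A summit there held at least 8 IP tags in either list. All intervals cover counting error only. They treat each tag as a separate molecule. Duplicates were kept and there were no molecular identifiers, so PCR copies would make the intervals too narrow. None of the 7 colon epithelium markers held a peak, which says nothing of their expression, since a peak list gives no expression level. Of the 6 fibroblast and blood markers, 1, HBB, held one in each list, where 0.456% (wild type) and 0.431% (ZCCHC7-OE) of protein-coding genes did.

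Coding sequence lay in a wild type region for 48 of 19951 protein-coding genes (0.241%), among them all 6 genes described here, and in a ZCCHC7-OE region for 48 (0.241%), among them 4 of the 6. In wild type, regions touched 44 of the 79 coding exons of the 6 genes and covered 62.9% of their 10140 coding bases. In ZCCHC7-OE they touched 34 of the 79 and covered 42.5%. The stop codon is left out of these lengths, and each gene is represented by its transcript with the longest coding sequence. Among the 35 other nuclear genes with wild type coding coverage, the median was 1 coding exon and 6.03% of the coding sequence, and 25 had a single exon touched. The highest count among them was 4 exons, as many as wild type regions touched in CAPN2. Among the 37 in ZCCHC7-OE the median was 1 exon and 7.10%, and 27 had a single exon touched. Their highest count was 2 exons, as many as ZCCHC7-OE regions touched in PSMB1. Just inside the chosen set lay PLA2G4A, with 5 of 17 exons and 34.9% in wild type, and PSMB1, with 5 of 6 and 83.4%. Outside it, COL6A1, a collagen gene, had 3 exons in wild type but 2.95% of its coding sequence. MAF and MYC, transcription factor genes with few exons, had high coverage from 2 regions each in either list. For wild type and ZCCHC7-OE in turn, MAF had 77.3% and 100%, and MYC 71.1% and 72.2%.

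**Figure D1:**
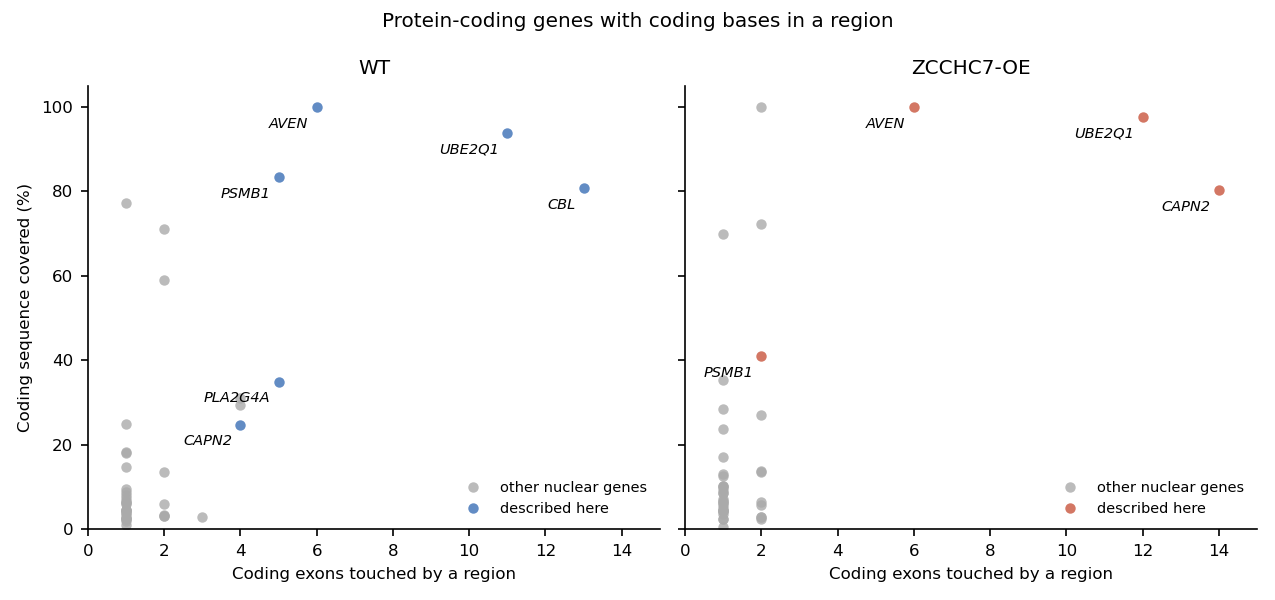
Share of the coding sequence covered by regions (percent, y axis) against the number of coding exons touched (x axis) for every nuclear protein-coding gene with coding bases in a region, wild type (WT) on the left and ZCCHC7-OE on the right. The genes described here are coloured and named. The other genes reached at most 4 exons in wild type, where CAPN2 also had 4. In ZCCHC7-OE the other genes reached at most 2 exons, where PSMB1 also had 2, and AVEN, UBE2Q1 and CAPN2 reached 6, 12 and 14.

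UBE2Q1, on the minus strand of chromosome 1 at 154548577 to 154559028, had a coding sequence of 1266 bases in 13 exons. Its 7 wild type regions touched 11 coding exons and covered 93.8% of the coding sequence, and its 7 ZCCHC7-OE regions touched 12 and covered 97.7%. Each touched exon was covered in full. The exons without a region were exon 10, of 49 bases, in wild type and exon 13, whose coding part is 29 bases, in both lists. Exons 5 to 9, separated by short introns, lay in a single wild type region of 1425 bp. The matching ZCCHC7-OE region, of 1457 bp, reached over exon 10 as well.

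IP tags in UBE2Q1 were highest at exon 1, with 301 in wild type and 432 in ZCCHC7-OE, or 281 (95% Poisson interval 250 to 315) and 625 (568 to 687) per 1000000 IP tags. Exon 5 followed with 125 and 148 tags, and exon 4, of 51 bases, held the fewest, 18 and 25. The remaining summits held, in wild type and ZCCHC7-OE, 99 and 117 tags in exon 2, 83 and 106 in exon 3, and 50 and 100 in exon 6. In exon 7 they held 40 and 61, in exon 8 84 and 132, in exon 11 91 and 129, and in exon 12 48 and 56. Each of these 10 exons had more tags in the ZCCHC7-OE library, although that library was the smaller. Exons 9 and 10 held no summit of their own. The antisense gene UBE2Q1-AS1 overlaps 1 region in each list, and the lists give no strand.

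AVEN, on the minus strand of chromosome 15 at 33866227 to 34039176, was the 1 gene of the 6 with every coding base in a region in both lists. Its 1086 coding bases lie in 6 exons, with 1 region on each exon in each list. Tags at the summits, in wild type and ZCCHC7-OE, were 100 and 251 in exon 1, 44 and 103 in exon 2 and 29 and 32 in exon 3. They were 31 and 72 in exon 4, 91 and 179 in exon 5 and 56 and 113 in exon 6. The order of the exons by tags was the same in both libraries (Spearman rho 1 over 6 exons, a description). Exons 1 and 5, the longest, were highest, and exon 3, of 71 bases, was lowest. CHRM5, a muscarinic receptor gene on the other strand, overlaps the AVEN regions on exons 1 and 2 in each list, and tags cannot be assigned to a strand.

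CAPN2, on the plus strand of chromosome 1 at 223701593 to 223776018, had few wild type and many ZCCHC7-OE regions. Its 2100 coding bases lie in 21 exons. In wild type 4 regions touched exons 9, 12, 19 and 20 and covered 24.8% of the coding sequence. In ZCCHC7-OE 13 regions touched 14 exons, those 4 included, and covered 80.3%. Wild type tags were 53 in exon 9, 85 in exon 12, 34 in exon 19 and 22 in exon 20, against 92, 148, 82 and 46 in ZCCHC7-OE. At the other ZCCHC7-OE exons the tags ran from 23 in exon 2 to 122 in exon 1, with 103 in exon 5 and 104 in exon 10. The 7 coding exons without a ZCCHC7-OE region were short, with a median of 58 and a maximum of 86 bases, against a median of 118 for the 14 touched. The shortest exon touched had 59 bases.

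The input was less empty at CAPN2 than at AVEN or UBE2Q1. In ZCCHC7-OE 3 of its 14 summits were at the lowest input background, against 54.2% of the 238 summits of the list, and in wild type 0 of 4, against 57.9% of 285. The background reached 5.0 at exon 10 and 3.0 at exon 3 in ZCCHC7-OE, where the authors' fold over input was 2.61 and 2.83. It was 0.324 at exon 12, where the authors' fold was 16.5 and thus the highest of the gene. The part of the input in the number of CAPN2 peaks was not tested.

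PSMB1, on the minus strand of chromosome 6 at 170535117 to 170553341, went the other way, with 5 wild type and 2 ZCCHC7-OE regions. Its coding sequence has 723 bases in 6 exons. Wild type regions touched all but exon 2 and covered 83.4% of it, and ZCCHC7-OE regions touched exons 1 and 6 and covered 40.9%. Wild type tags were 42 in exon 1, 13 in exon 3, 23 in exon 4, 24 in exon 5 and 62 in exon 6. In ZCCHC7-OE they were 23 in exon 1 and 32 in exon 6. The exons with regions in both lists were those with the most wild type tags.

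CBL, on the plus strand of chromosome 11 at 119206276 to 119313926, had 12 wild type regions and no ZCCHC7-OE region. The wild type regions touched 13 of its 16 coding exons and covered 80.9% of 2718 coding bases, 9 of the exons in full. The exons left out were 7, 8 and 12, of 88, 132 and 95 bases. Tags were 42 in exon 1, 36 in exon 11, 36 in exon 16 and 31 in exon 15. In the other 9 exons they ran from 11 in exon 3 to 19 in exon 4. Exon 1 stood at 39.2 tags per 1000000 (28.3 to 53.1) and exon 3 at 10.3 (5.13 to 18.4). Of its 13 summits, 12 were at the lowest input background.

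PLA2G4A, on the plus strand of chromosome 1 at 186828953 to 186988981, had 5 wild type regions and again none in ZCCHC7-OE. They touched exons 7, 8, 9, 11 and 15 of 18 and covered 34.9% of 2247 coding bases. Tags were 10, 11, 14, 17 and 16 in these exons, and their median of 14 was the lowest of the 6 genes. All 5 summits were at the lowest input background. Exon 14, the longest at 243 bases, held no region.

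**Figure D2:**
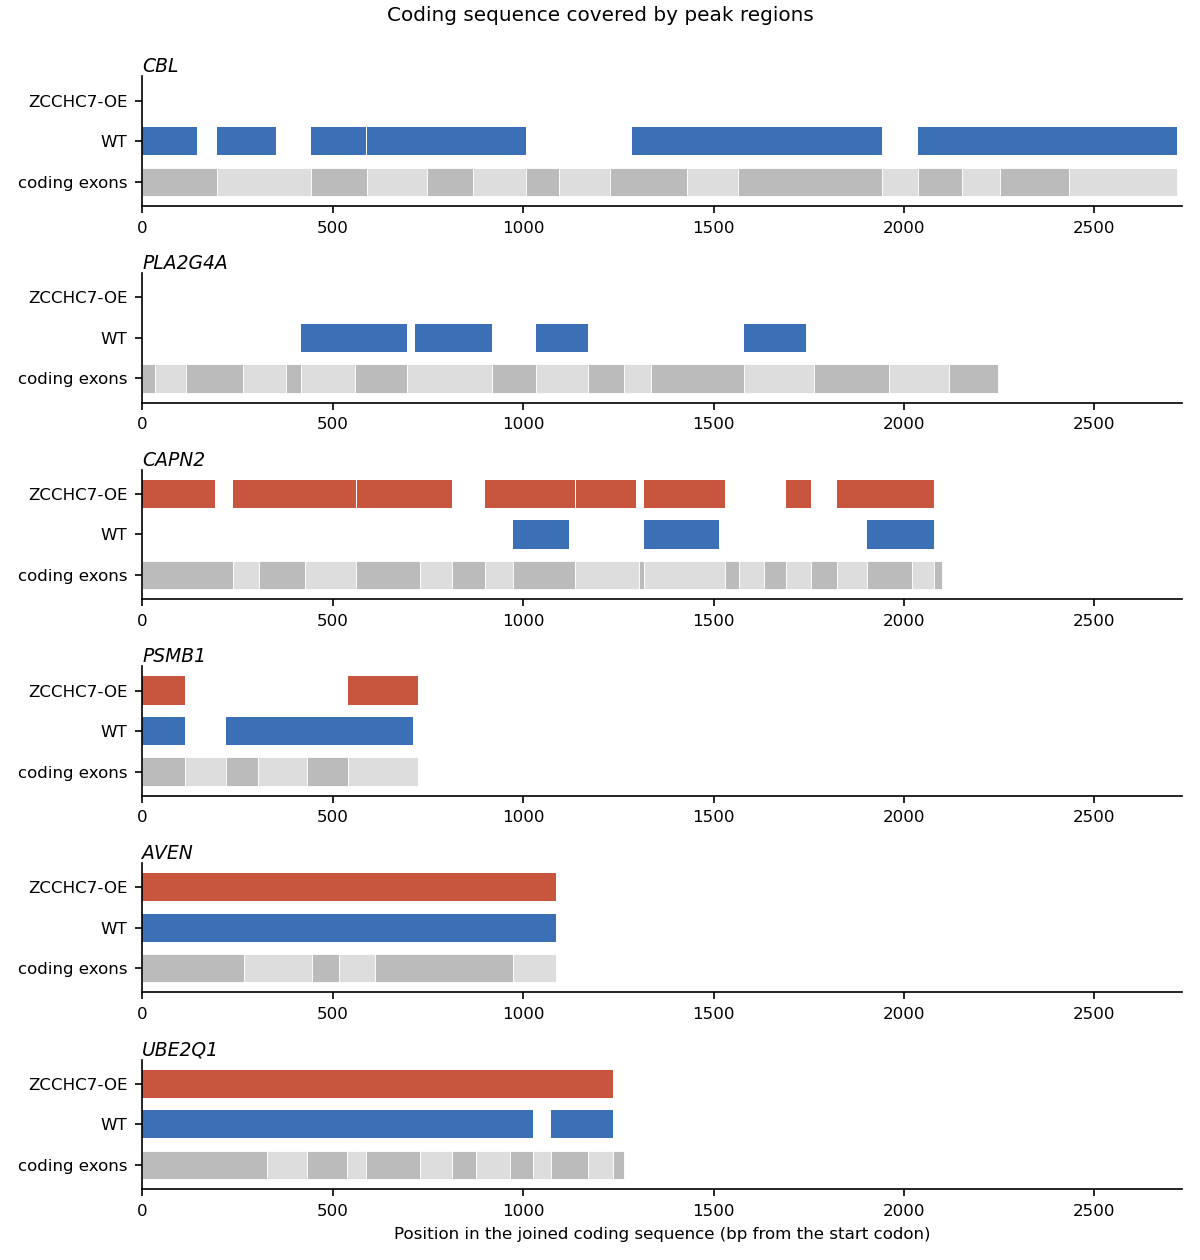
Position along the joined coding sequence (bp from the start codon) of the coding exons (grey, alternating shades) and of the bases covered by wild type (WT, blue) and ZCCHC7-OE (red) regions, for each gene. AVEN is covered in full in both lists, CBL at 80.9% in wild type alone, and CAPN2 at 24.8% (WT) and 80.3% (ZCCHC7-OE).

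The genes differed in how firmly their regions were called. The authors' q-value passed 0.05 at 44.5% of all wild type regions and 52.1% of all ZCCHC7-OE regions. It passed at 6 of 7 UBE2Q1 regions in each list, and at 5 of 6 AVEN regions in wild type and 6 of 6 in ZCCHC7-OE. At CAPN2 it passed at 2 of 4 and 8 of 13. It passed at 3 of the 12 CBL regions, 0 of the 5 PLA2G4A regions, and 0 of the 5 wild type and 1 of the 2 ZCCHC7-OE regions of PSMB1. With the regions past that q-value alone, CBL coverage was 35.9%, wild type CAPN2 coverage 15.0%, and ZCCHC7-OE coverage 53.9% for CAPN2 and 25.3% for PSMB1. Wild type PSMB1 and PLA2G4A then had no coverage. UBE2Q1 and AVEN kept at least 89.8% in both lists. Over the 6 genes the order of the lists then turned, with 34.0% of coding bases and 21 exons for wild type against 35.4% and 27 exons for ZCCHC7-OE.

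Longer coding exons held more tags in each gene but PLA2G4A. Across coding exons with a summit, Spearman rho between coding length and tags was 0.95 for the wild type list and 0.88 for the ZCCHC7-OE list over 10 exons of UBE2Q1, 0.89 in either list over 6 of AVEN, 0.89 over 14 of CAPN2 in ZCCHC7-OE 0.71 over 13 of CBL in wild type and 0.70 over 5 of PSMB1 in wild type. For PLA2G4A it was 0.10 over 5 exons. The exons of a gene share a library, so these values are descriptions.

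**Figure D3:**
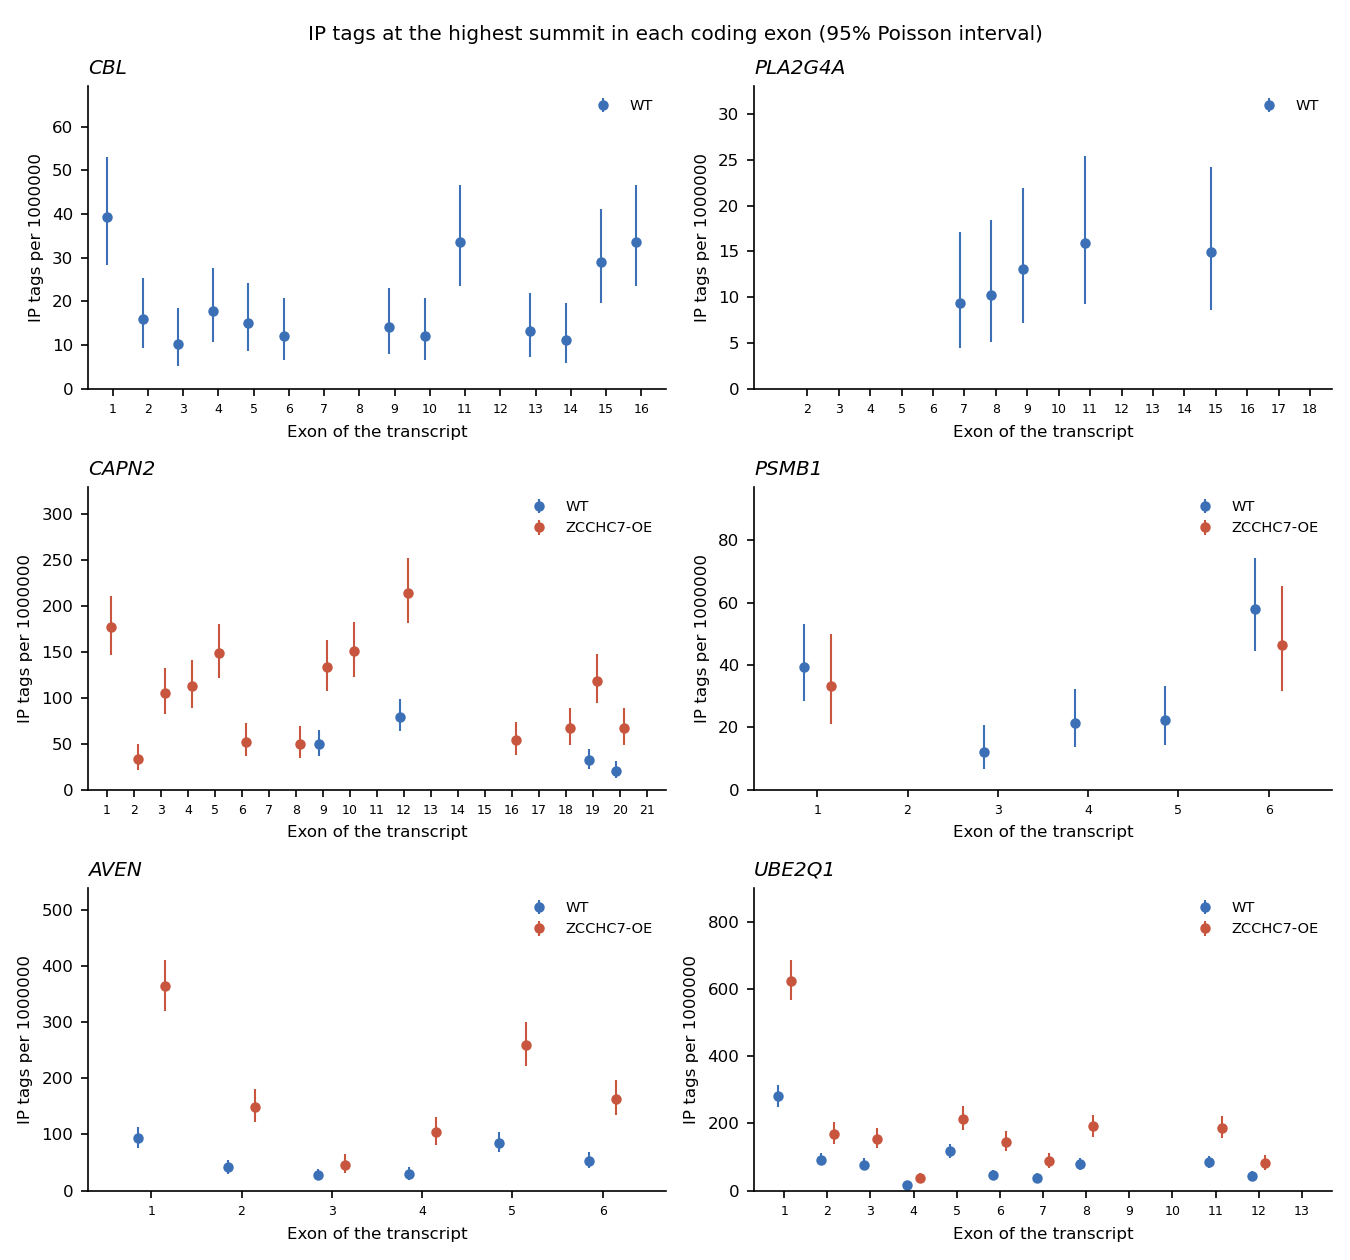
IP tags per 1000000 IP tags (y axis) at the highest summit within each coding exon (x axis, exon number of the transcript), with 95% exact Poisson intervals, wild type (WT) in blue and ZCCHC7-OE in red; an exon without a point held no summit. In UBE2Q1 exon 1 reached 281 (WT) and 625 (ZCCHC7-OE), and in AVEN every ZCCHC7-OE point lies above the wild type point.

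Every region touched coding sequence, and most edges lay outside the coding exon. Of the 9266 bp of wild type regions, 68.9% were coding and 29.5% intronic, and of the 8498 bp in ZCCHC7-OE 50.7% were coding and 45.8% intronic. Regions of other nuclear genes that touched coding sequence were 72.8% and 67.3% coding. For the 37 wild type regions that touched 1 coding exon, the edges lay a median of 10 bp beyond its coding border, from 92 bp inside to 95 bp outside. For the 26 in ZCCHC7-OE the median was 55.5 bp, from 47 bp inside to 108 bp outside.

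CBL and PLA2G4A regions fitted their exons most closely. Of 22 CBL edges, 13 lay within 3 bp of the coding border, as did 5 of 10 PLA2G4A edges, against 9 of 76 wild type edges of other nuclear genes. The CBL region on exon 4 began and ended on the first and last base of its 157 base exon. Non-coding bases made up 9.36% of CBL and 3.68% of PLA2G4A region length. In wild type this share was 23.6% in CAPN2, 31.8% in PSMB1, 31.2% in AVEN and 58.8% in UBE2Q1. In ZCCHC7-OE it was 45.6% in CAPN2, 32.0% in PSMB1, 40.1% in AVEN and 60.7% in UBE2Q1. These comparisons were not matched for exon length, and the shares include introns inside regions that span several exons. In UBE2Q1 such a region had 988 non-coding bp of 1425 in wild type and 971 of 1457 in ZCCHC7-OE. In CAPN2 the ZCCHC7-OE region over exons 19 and 20 had 413 of 589. Exons touched in wild type had a median of 157 bases in CBL and 142 in PLA2G4A. The median was 139 in CAPN2, 113 in PSMB1, 145.5 in AVEN and 91 in UBE2Q1. Of the CBL regions, 6 of 12 had the shortest length in the list, 147 bp, against 11.8% of all wild type regions, and no region of these genes had the shortest ZCCHC7-OE length of 154 bp (10.3% of the list). Across the genes' regions on 1 exon, the summed overhang of a region and its tags had a Spearman rho of 0.34 over 37 wild type regions and -0.16 over 26 in ZCCHC7-OE.

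At short internal exons touched by a region of their own, most edges lay where the caller's own extension of tags would place them. Along the genome, the caller drew each tag out to 147 bp for wild type and 154 bp for ZCCHC7-OE, so a tag starting at one border of a shorter exon is drawn past the other border by the extension minus the exon length. Among regions that touched 1 coding exon, 26 of the 38 wild type edges on internal exons shorter than 147 bp lay within 5 bp of that distance. In ZCCHC7-OE 22 of 28 such edges lay within 5 bp of theirs. The 71 base exon 3 of AVEN had overhangs of 76 and 74 bp in wild type, where that distance is 76, and 83 and 81 bp in ZCCHC7-OE, where it is 83. Exon 16 of CAPN2, of 65 bases, had overhangs of 89 bp on both sides in ZCCHC7-OE, where the distance is 89. Both edges fell at that distance in 9 of 19 wild type and 9 of 14 ZCCHC7-OE regions. In other nuclear genes 6 of 18 wild type and 8 of 18 ZCCHC7-OE edges did, and both edges in 2 of 9 and 1 of 9 regions. A region of the shortest length with 1 edge on the border has its other edge there by construction. In the genes described here, 4 wild type and 5 ZCCHC7-OE edges went more than 5 bp past it, by up to 26 and 38 bp, both of these in UBE2Q1.

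**Figure D4:**
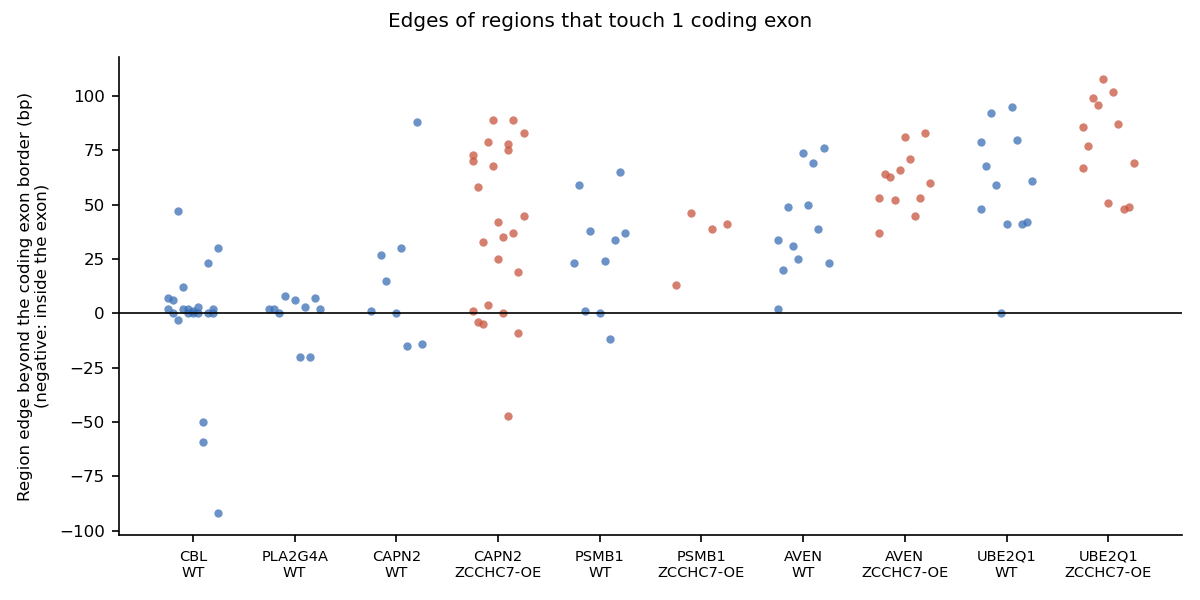
Distance in bp (y axis) by which each edge of a region lay beyond the coding border of the exon it touched, negative where the edge lay inside the exon, for regions that touched 1 coding exon, by gene and list (wild type, WT, blue; ZCCHC7-OE, red). CBL and PLA2G4A edges gather at 0, and UBE2Q1 edges lie up to 95 bp out for wild type and up to 108 bp out for ZCCHC7-OE.

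Pooled over the genes, regions took up a small share of the 3′ UTRs and a larger share of the 5′ UTRs, but not in every gene. CBL alone has 8368 of the pooled 3′ UTR bases. In wild type no 5′ UTR base was covered in PLA2G4A, CAPN2 or UBE2Q1. The 6 genes have 912 bases of 5′ UTR and 12352 of 3′ UTR, of which wild type regions took up 86 and 66. In the 4 genes with ZCCHC7-OE regions, 193 of 618 bases of 5′ UTR and 78 of 3511 bases of 3′ UTR were covered. CBL regions began 2 bases before the start codon, ended before the stop codon and took up no base of its 8368 base 3′ UTR. In CAPN2 the ZCCHC7-OE regions began 1 base before the start codon and left all 1161 bases of 3′ UTR free. The wild type UBE2Q1 regions began at the first base of the start codon, whereas those in ZCCHC7-OE began 108 bp before it, past the 80 base 5′ UTR of the transcript. Its 1861 base 3′ UTR held no region base in either list. AVEN had 66 covered bases of its 386 base 3′ UTR in wild type against 42 in ZCCHC7-OE, and 25 against 66 of its 130 base 5′ UTR. PSMB1 had 59 and 46 of 99 bases of 5′ UTR covered, and 36 of 103 bases of 3′ UTR in ZCCHC7-OE alone. Whether the tags came from spliced mRNA or from other molecules that hold the joined coding exons was not tested. RefSeq promoter windows (GRCh38.p14), 300 bp each, were given for 3 of the genes, and none of the 4 windows held a region base.

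In AVEN and UBE2Q1 the regions of both lists lay at the same places. Of the 39 wild type regions of the 6 genes, 19 overlapped a ZCCHC7-OE region by at least 1 bp, against 62.0% of all wild type regions, and 18 of the 28 in ZCCHC7-OE overlapped a wild type region, against 73.2%. All regions of AVEN and UBE2Q1 overlapped in both directions, and all 4 wild type regions of CAPN2 and both ZCCHC7-OE regions of PSMB1 did. In 22 coding exons with a summit in both lists, the median distance between them was 5 bp, and in 21 exons it was at most 20 bp. The exception was exon 5 of AVEN, of 361 bases, at 57 bp. Both summits had to lie within the same exon, so exon length bounds these distances. They were not measured in other genes.

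At these exons the share of IP tags was higher in the ZCCHC7-OE library for AVEN, CAPN2 and UBE2Q1, while the interval for PSMB1 included 0 before the shift over all loci was taken out. For AVEN the added tags of 6 exons were 351 in wild type and 750 in ZCCHC7-OE, a log2 ratio of tags per 1000000 of 1.73 (95% exact conditional interval 1.54 to 1.91). For CAPN2 they were 194 and 368 over 4 exons, 1.55 (1.30 to 1.81), and for UBE2Q1 939 and 1306 over 10 exons, 1.11 (0.99 to 1.23). For PSMB1 they were 104 and 55 over 2 exons, -0.29 (-0.79 to 0.20). Relative to the median of 0.38 over the 140 loci with a region in both lists, the PSMB1 value was -0.67 (-1.17 to -0.18). That interval lay below 0. With all summits of the gene added and no such shift, the PSMB1 value was -0.94 (-1.41 to -0.50). That sum sets 5 wild type summits against 2 in ZCCHC7-OE. Exons without a ZCCHC7-OE region enter it as 0, so it reflects which regions were called and is not a measured decrease. The interval lay above 0 at 6 of 6 AVEN, 4 of 4 CAPN2 and 10 of 10 UBE2Q1 exons, against 40.0% of the loci. It lay above that median at 5, 4 and 8 of these exons, against 23.6% of the loci. In PSMB1 it lay below 0 at neither exon (4.29% of the loci) and below the median at 1 of 2, exon 6 (12.9% of the loci). The 140 loci include 18 in these genes themselves. A locus is a merged region that can hold several exons, so the shares of loci and of exons are not like for like. Among the 122 loci outside the 6 genes the median was 0.31.

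Within AVEN, exon 3 stood lower than the others, at 0.77 (0.002 to 1.55) against 1.61 to 1.96. In UBE2Q1 the exons ran from 0.85 in exon 12 to 1.63 in exon 6, and in CAPN2 from 1.43 in exon 9 to 1.90 in exon 19. The exons of a gene share their library and are not replicates, and the ratios describe these libraries rather than the genotypes. They use IP tags alone. The input background went from 2.0 to 1.0 at exon 1 of AVEN and from 0.0995 to 0.999 at its exon 6, and was 0.294 and 0.308 at exon 1 of UBE2Q1. At exon 9 of CAPN2 it went from 2.0 to 1.0, at exon 5 of UBE2Q1 from 0.0995 to 1.0, and at the PSMB1 exons from 1.0 to 0.0723 and from 1.0 to 0.0720. The part of the input in the ratios was not tested.

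**Figure D5:**
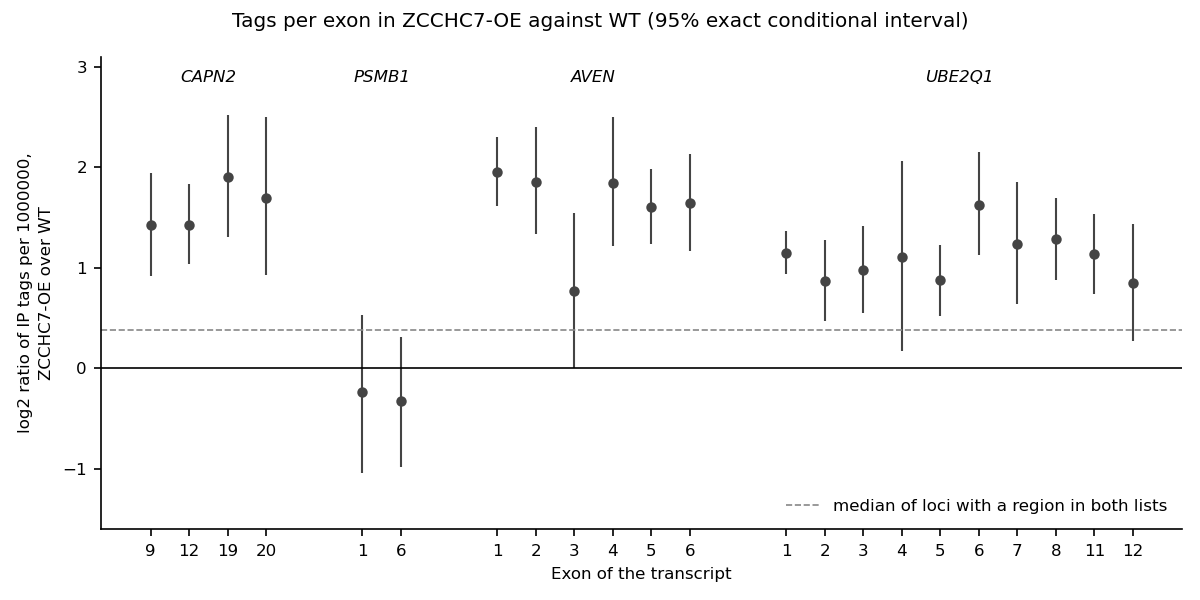
Log2 ratio of IP tags per 1000000, ZCCHC7-OE over wild type (WT), at each coding exon with a summit in both lists (x axis, exon number, grouped by gene), with 95% exact conditional intervals. The dashed line is the median of 0.38 over 140 loci with a region in both lists; AVEN, CAPN2 and UBE2Q1 exons lie above it and the PSMB1 exons below.

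For summits with a region in 1 list alone, tags were scaled to the depth of the other library. At an equal share of IP tags, the 13 CBL summits would have held 7.10 to 27.1 tags in the smaller ZCCHC7-OE library, with a median of 10.3. Of these, 11 would have reached the 8 tags of the weakest call at the lowest background, although exon 1 had a wild type background of 0.294. Such scaled values leave out counting error and come from summits picked by their call in the other list. The 5 PLA2G4A summits would have held 6.46 to 10.98 tags, and 3 would have reached 8. At the 3 PSMB1 summits without a ZCCHC7-OE region the values were 8.39 to 15.5. For PLA2G4A, lower recovery in ZCCHC7-OE and lower depth cannot be told apart. The part of depth in the absence of CBL regions was not tested. For CAPN2, the 10 ZCCHC7-OE summits without a wild type region would have held 35.6 to 189 tags in the larger wild type library, above 8 in every case, but the input background at those wild type positions was not analysed here. For an exon without a region, the lists give no tag count.

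None of 35 relatives of these genes held a region in either list, where 0.456% of all protein-coding genes held one in wild type and 0.431% in ZCCHC7-OE, so a count of 0 is near that background. They were among them CBLB and CBLC, the other CBL-type ligases, 7 genes of the calpain system with the inhibitor CAST among them, 16 other proteasome core subunit genes, UBE2Q2, and APAF1 and BCL2L1, the apoptosis regulators that AVEN binds. None of the 46 events in the authors' deposited splicing tables lay in any of the 6 genes, so these tables add nothing on their exons.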

How the data were processed

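The deposited files used were 2 peak lists and a gene annotation. Per the file headers, the authors called peaks with MACS 2.1.0.20150420 at a p-value cutoff of 0.005, comparing each IP with the input of its genotype, with no fragment model and all duplicates kept. The headers name the libraries by initials, which were matched to wild type and ZCCHC7-OE by the sample titles. The submitters' processing notes also name FastQC 0.11.5 and HOMER, and the aligner is not given in the sources used here. The genome build is likewise not given there, and coordinates are those of the deposited files. The annotation's positions of 6 of 6 genes overlapped those of RefSeq on GRCh38.p14.

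The deposited pileup signal is the height of extended IP tags at a summit, which the authors' caller scaled to the input total. The deposited fold is the authors' ratio of pileup to local input background, each plus 1. The p-values and q-values were deposited by the authors as −log10 values. Folds are used within a list alone.

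IP tags were recovered as the pileup times IP tags over input tags, and came out within 0.1 of a whole number at all 285 summits of the wild type list and all 238 of the other. The input background was recovered from pileup and fold. A region counted for an exon at an overlap of 1 bp. Intervals at 95% are exact Poisson for tags and exact conditional binomial for ratios. With 1 library per group there is no test between genotypes. Calculations used Python 3.11.15, NumPy 2.4.6 and SciPy 1.17.1, with plots in Matplotlib 3.10.9. The scripts were tested on simulated data.

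The genes and gene lists were chosen with earlier results of these data known. Named in the text are the 6 genes, other genes with the most coding exons touched or the highest coverage, and genes that overlap their regions; 1 locus that this rule names is not reported here. Alternatives tried were stricter regions by q-value or fold, other transcripts, other overlaps and other ways of adding tags. Motifs in the exons were not analysed here.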

Additional observations from a re-analysis of the deposited data

How the results depend on the processing

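Of 124 values recomputed under another choice, 77 stayed near the value reported (counts within 1.5 times, shares and ratios within its 95% interval), 47 moved further, and none of the log2 ratios of the 4 genes changed sign. The 77 include the ZCCHC7-OE values of CBL and PLA2G4A. These were 0 because neither gene had a region in that list, so no choice could move them. With regions past the q-value of 0.05 alone, coverage over the 6 genes was 34.0% for wild type and 35.4% for ZCCHC7-OE, with 21 and 27 exons, so that the order of the lists (62.9% and 42.5%, 44 and 34 exons) turned. With folds at or above the list median it was 37.8% and 35.4%, with 24 and 27 exons, where the order of exons turned. Over the union of coding transcripts wild type coverage was 61.9%. Among regions on a single coding exon, the non-coding share was 25.0% for wild type and 43.5% for ZCCHC7-OE. With all summits added, the log2 ratio was 3.03 for CAPN2 and -0.94 for PSMB1. These sums count nothing for exons without a region. They set 4 wild type against 14 ZCCHC7-OE summits in CAPN2, and 5 against 2 in PSMB1. At the highest summit alone the log2 ratio was 1.96 for AVEN. Relative to the median of shared loci it was 1.17 for CAPN2, 1.35 for AVEN, 0.73 for UBE2Q1 and -0.67 for PSMB1. For AVEN it was 1.62 without exon 1 and 1.57 without exons 1 and 2, both of which CHRM5 overlaps, choices made after seeing the data. A next longest basic transcript of another length was found for CBL and CAPN2 alone. No paired analysis was possible because each group had 1 library. At an equal share of tags, with counting error left out, 2 of 5 PLA2G4A and 2 of 13 CBL summits would have fallen below 8 tags in the smaller library. That is the weakest call at the lowest background.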
